A study of Mus musculus with 56 samples.

Results

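The day 9 group of this time course comprised 12 of the 56 mouse blood arrays: 6 mice injected with 90Sr and killed 9 days later, and 6 control mice of the same day. The arrays were chosen by their titles alone, with no measured value. The irradiated mice received 200 kBq of 85/90SrCl2 in 0.05 mL into the tail vein, 85Sr serving as a tracer, and the control mice received the saline vehicle. All 12 were C57BL/6 mice that were 10 to 12 weeks old and weighed 25 to 30 g on arrival, and they were quarantined for 14 days before the study. Whole blood was drawn by cardiac puncture, globin transcripts were depleted and the RNA of each mouse was hybridized to 1 one-color Agilent array. The other 44 arrays, from days 4, 7, 25 and 30, were used for the filters and for the comparison with those days.

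Strontium follows calcium into bone, where the beta particles of 90Sr and of its daughter yttrium reach the neighboring marrow. Marrow renews the short-lived cells of the blood, and B lymphocytes and their precursors are among the most radiosensitive of these. Whole blood RNA is a mixture from lymphocytes, monocytes, granulocytes, platelets and young red cells that still hold RNA. The blood label held against its markers: Cd3e (T cells), Cd79b (B cells), S100a9 (neutrophils), Pf4 (platelets) and Slc4a1 (red cells) were well above background on all 12 arrays. A change in this mixture can come from fewer cells of a type or from less RNA per cell, and the 2 cannot be told apart here.

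At day 9, relative to the median of each array, the blood of irradiated mice had less RNA signal from B cell and antigen presentation genes. By the same measure it had more from red cell, cell division and metallothionein genes. A level is given throughout as the log2 processed signal less the median of the 43020 non-control spots of that array, and a change as the mean level in irradiated mice less that in control mice. Of 14581 genes tested, 3404 (23.3%) passed both limits used for calls, an unadjusted limma p under 0.001 and 2-fold or more between the groups, 2610 of them lower (17.9%) and 794 higher (5.45%). The largest Benjamini-Hochberg adjusted p among them was 0.00371. Among these called genes, every irradiated mouse lay beyond every control mouse for 2411 of the lower and 554 of the higher ones. Calls and overlap come from the same 12 arrays, so this lack of overlap is no separate support. It is not given here for all tested genes. The 12 largest rises and falls named below were chosen among genes without overlap, so for them the choice fixed it. "Fell" and "rose" are used below for genes past this threshold. The shares of 17.9% lower and 5.45% higher are those to set beside the counts of each list.

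The arrays of irradiated mice were dimmer as a whole. The log2 array median before scaling was 4.30 to 4.73 in control mice and 2.87 to 4.12 in irradiated mice, with no overlap (two-sided exact permutation test, p = 0.00216, the smallest that 6 against 6 can give; adjusted over 4 array measures, p = 0.00289). The number of spots well above background was 19671 to 21569 in control mice and 14389 to 19176 in irradiated mice, also with no overlap. The median log2 signal of the spike-in probes, RNAs added in fixed amount, was 6.02 to 6.37 in control mice and 6.17 to 7.23 in irradiated mice (exact permutation p = 0.21). A change is therefore relative to the rest of the array: with the arrays scaled to their 75th percentile, 2304 genes were higher and 908 lower, and with the spike-in probes 1 was higher and 8039 lower. The median change of all detected genes was -0.08 as scaled here, 0.33 on the 75th percentile and -1.33 on the spike-in probes. Of the genes named below, some were above 0 as scaled here and below 0 on the spike-in probes. Among them were Alas2, Bcl2a1c, Bcl2l1, Blvrb, Cops7b, Fancd2, Isg15, Lrdd, Lsm6, Nqo1, Prdx2, Rsad2, Sod2 and Urod. Others, among them Cd3e, S100a8 and Ephx1, were below 0 here and above 0 on the 75th percentile. Further named genes of small change, some of them not tested, also turn sign with the scaling. How far the dimmer arrays enter the results was not tested.

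The arrays lay on 3 slides. Control replicates 1 to 4 shared one, irradiated replicates 3 to 6 another, and 2 control and 2 irradiated arrays shared the remaining slide. With slide as a fixed block 871 genes were called (679 lower, 192 higher), of which 703 were among the 3404. Within the shared slide alone 358 were called (259 lower, 99 higher), 244 of them among the 3404. Only that slide held both groups, so both fits take the change from its arrays. Leaving out irradiated replicates 3 and 5, the arrays of highest spike-in signal, 2248 genes were called (1735 lower, 513 higher).

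The change varied with a gene's level in control mice. With the tested genes in 4 equal groups by mean level in the 6 control mice, in the dimmest group 425 were called higher and 20 lower. In the next groups 63 and 58 were higher and 657 and 1134 lower, and in the brightest 248 were higher and 799 lower. The median change from dimmest to brightest was 0.55, -0.36, -0.76 and -0.34. The control level is itself a term of the change, and how far this enters the pattern was not tested. Of the 794 higher genes, 364 were well above background on all irradiated arrays. Of the 2610 lower genes, 2447 were well above background on all control arrays and 614 on no irradiated array.

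**Figure D1:**
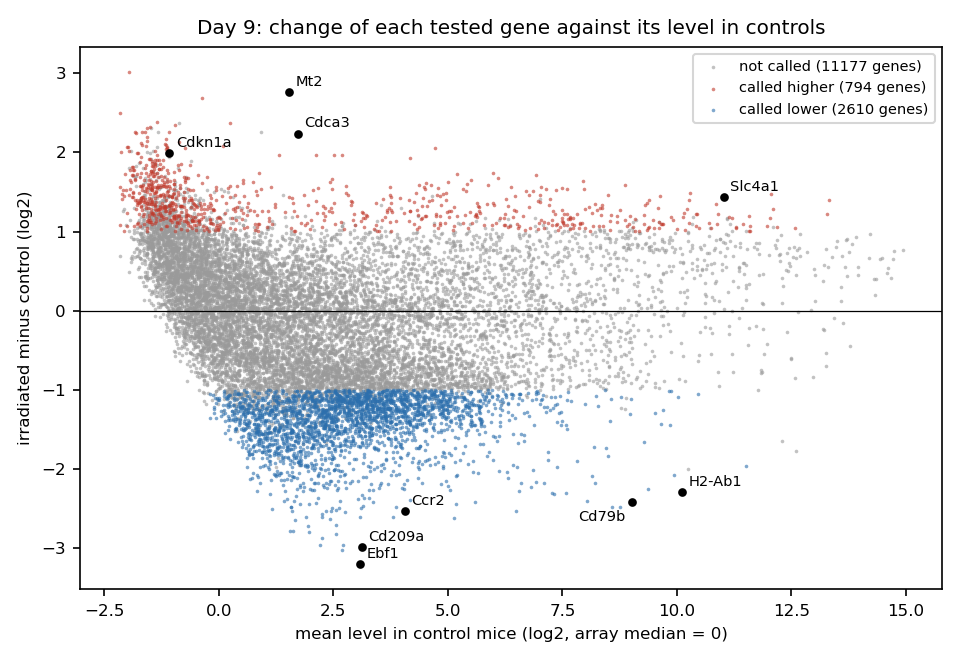
Change of each of the 14581 tested genes at day 9 (irradiated minus control, log2) against its mean level in the 6 control mice (log2, array median = 0). Red points are the 794 genes called higher, blue points the 2610 called lower and gray points the rest; 9 genes of the text are marked, among them Mt2 (2.76) and Cd79b (-2.42).

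B cell genes fell together. Of 17 detected B cell marker genes, 16 were tested, 14 fell and none rose, and all 17 changes were below 0. Their median change was -2.08, beside -0.08 for all detected genes. The mean level of the 17 was 5.13 to 5.48 in control mice and 3.06 to 4.12 in irradiated mice, with no overlap. Cr2 (-0.89) and Pax5 (-0.46) did not pass, and Cd22 (-0.40) varied too little over the 56 arrays to be tested.

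The genes of the B cell surface receptor complex were bright in every mouse. Cd79b, which encodes the beta signaling chain of the receptor, had a lowest, median and highest level of 8.73, 9.02 and 9.28 in control mice and of 6.18, 6.44 and 7.59 in irradiated mice, a 5.35-fold fall (SE 0.25 on the log2 scale, adjusted p = 1.8e-05). Its partner Cd79a lay at 6.83, 7.32 and 7.52 in control mice and at 4.48, 4.80 and 5.86 in irradiated mice, and fell 4.93-fold (adjusted p = 2.1e-05); a dimmer probe of Cd79a changed by -1.27. Neither gene overlapped between the groups. Ms4a1, encoding the surface protein CD20, lay at 6.91, 7.34 and 7.69 in control mice and at 4.59, 4.83 and 5.83 in irradiated mice, a 4.96-fold fall (adjusted p = 1.9e-05). The groups did not overlap for this gene.

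Ebf1 is the transcription factor that commits lymphoid precursors to the B lineage, and its probe lies at chr11:44818438-44818497 on mm9. Its levels were 2.73, 3.06 and 3.47 in control mice and -0.89, -0.24 and 1.11 in irradiated mice. It was well above background in all 6 control mice and in 0 of 6 irradiated mice, so that the fall is given as at least 4.83-fold (adjusted p = 1.6e-05). Blk, a Src-family kinase of B cells, was likewise well above background in no irradiated mouse and fell at least 1.90-fold (adjusted p = 6.4e-06). Spib, a transcription factor of B cells and plasmacytoid dendritic cells, fell 4.84-fold and Fcrla, an Fc receptor-like protein of B cells, 5.33-fold.

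Of 25 detected genes of B cell receptor signaling, 19 were tested and 16 fell (median change -1.29). They included the inhibitory Fc receptor Fcgr2b (4.82-fold), the kinases Btk (-1.20) and Syk (-1.05), the adaptor Blnk (-2.01) and the phospholipase Plcg2 (-1.57). The kinase Lyn (-0.15) and the coreceptor component Cd81 (0.13) varied too little over the series to be tested. Of 28 lymphoid transcription factors, 27 were tested and 13 fell (median change -0.96), among them Pou2af1, the B cell coactivator of octamer factors (3.21-fold), and Bach2 (-1.52), while those of T cells such as Gata3 (-0.66) and Bcl11b (-0.31) did not pass. Of 7 detected plasma cell genes 2 fell: Irf4, a transcription factor (4.25-fold), and Mzb1, a chaperone of immunoglobulin assembly (3.47-fold). Igj (0.09), Xbp1 (-0.65) and Prdm1 (-1.23) of the same list did not pass. Prdm1 was well above background in 4 control mice and in no irradiated mouse.

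Genes of MHC class II presentation fell as a block. All 14 were detected and tested, 13 fell and the median change was -2.06. The mean level of the 14 was 5.46 to 6.23 in control mice and 3.60 to 4.61 in irradiated mice, with no overlap. The exception was Ciita, the coactivator that switches on the class II genes, at -0.88. H2-Ab1, the beta chain of the I-A molecule, lay at 9.61, 10.15 and 10.49 in control mice and at 7.27, 7.57 and 8.79 in irradiated mice, a 4.89-fold fall (adjusted p = 3.5e-05). Cd74, the invariant chain that guards the peptide groove, lay at 7.86, 8.25 and 8.57 in control mice and at 5.49, 5.98 and 6.74 in irradiated mice, a 4.52-fold fall (adjusted p = 2.2e-05). The groups did not overlap for either gene. H2-Aa (4.69-fold), the alpha chain, and H2-DMb1 (4.31-fold), part of the peptide-loading molecule, fell by much the same amount, and H2-Eb2, outside the list, was well above background in no irradiated mouse and fell at least 2.86-fold.

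Class II genes share a promoter module in which a CCAAT box, bound by the factor NF-Y, lies nearest the gene. RefSeq windows (GRCm38.p6, 250 bases before the start) were at hand for 9 of the 14 genes, all of which fell, and 7 of the 9 held CCAAT on either strand, against 37.5% of 27025 genes. The 4 windows below are shown because they let the position and strand of the box be compared; the capitals mark CCAAT or its reverse complement ATTGG.
H2-Aa, chr17:34287847-34287891, minus strand: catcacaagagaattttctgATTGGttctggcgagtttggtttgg
H2-DMb1, chr17:34153110-34153154, plus strand: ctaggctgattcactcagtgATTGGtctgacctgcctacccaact
H2-DMb2, chr17:34145139-34145183, plus strand: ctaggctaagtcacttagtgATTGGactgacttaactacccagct
H2-Eb1, chr17:34305788-34305856, plus strand: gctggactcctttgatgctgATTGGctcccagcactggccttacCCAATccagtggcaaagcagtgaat
Each window carries the box as ATTGG, and H2-Eb1 also has it in the other orientation. A match of 5 letters is a description of the window and no evidence of binding.

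Monocyte, eosinophil and dendritic cell genes fell in part. Of 8 detected classical monocyte genes, all tested, 5 fell (median change -1.23). Of 6 patrolling monocyte genes 5 were tested and 3 fell (-0.77). Of 8 basophil and eosinophil genes, all tested, 5 fell (-1.40), and of 10 dendritic cell genes 8 were tested and 3 fell (-0.52). No gene of these lists rose. Among all tested genes 17.9% were called lower and 5.45% higher. Ccr2, the chemokine receptor by which classical monocytes leave the marrow, lay at 3.41, 4.08 and 4.67 in control mice and at 0.87, 1.42 and 2.45 in irradiated mice, with no overlap, and fell 5.78-fold (adjusted p = 3.3e-05). Cx3cr1, the fractalkine receptor of patrolling monocytes, fell 3.67-fold, and Nr4a1, a nuclear receptor on which those cells depend, 2.55-fold. The eotaxin receptor Ccr3 fell 3.78-fold and Il5ra, the receptor of the eosinophil growth factor IL-5, 3.23-fold. Cd209a, a lectin of monocyte-derived dendritic cells, lay at 2.50, 3.15 and 3.90 in control mice and at -1.18, 0.25 and 0.82 in irradiated mice, a 7.91-fold fall (adjusted p = 2.6e-05), and was well above background in 1 irradiated mouse. Lyz2, the lysozyme of monocytes and neutrophils, changed by -0.92 and did not pass. Siglech (-0.16) and Zbtb46 (-0.01) of the dendritic list, Fabp4 (0.03) of the patrolling monocyte list and Hdc (0.15) of the eosinophil list did not pass either. Ace (0.004), of the patrolling monocyte list, was not tested.

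T cell and natural killer cell genes moved less. Of 22 detected T cell genes 17 were tested and 2 fell: Cd2, an adhesion molecule (2.32-fold), and Ccr7, the receptor that guides cells to lymph nodes (2.18-fold). The median change was -0.56, 21 of the 22 changes were below 0, and 12 of the 17 had an unadjusted limma p under 0.05. Of all tested genes 17.9% were called lower. The mean level of the 22 was 4.63 to 4.99 in control mice and 3.81 to 4.59 in irradiated mice, with no overlap. Cd3e, a chain of the T cell receptor complex, lay at 6.36, 7.04 and 7.24 in control mice and at 6.36, 6.81 and 7.45 in irradiated mice (change -0.10, SE 0.23, adjusted p = 0.76), and the groups overlapped. That change was the smallest of the list. Cd3d, another chain, changed by -0.66 (adjusted p = 0.028) and did not pass. Cd4 changed by -1.24 (adjusted p = 0.046) and did not pass either. Of 14 natural killer genes, 13 were tested and 1 fell, Klrk1, which encodes the activating receptor NKG2D and was well above background in 5 control mice and in no irradiated mouse. The median change of the 14 was -0.70, all 14 changes were below 0, and 8 of the 13 had an unadjusted limma p under 0.05.

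Neutrophil and platelet genes stayed below the threshold with 1 exception, beside 17.9% lower and 5.45% higher among all tested genes. With few genes tested in each list, these counts do not set the lists apart from all genes. Of 17 detected genes of mature neutrophils, 13 were tested and 0 were called by limma or by the methods' t-test, with 5 at an unadjusted p under 0.05 in limma (median change -0.08). S100a9, a calcium-binding protein of neutrophil cytosol, lay at 10.94, 11.61 and 12.14 in control mice and at 10.90, 11.33 and 11.72 in irradiated mice (change -0.22, adjusted p = 0.46), and its partner S100a8 changed by -0.31 (adjusted p = 0.27); the groups overlapped for both. Of 10 detected genes of neutrophil granules, made in the marrow, 9 were tested and 1 fell, the granule transcription factor Cebpe (2.28-fold). Of 24 platelet genes, 8 varied enough over the series to be tested and 0 were called by limma or by the methods' t-test, with 2 at an unadjusted p under 0.05 in limma (median change 0.17). Pf4, the platelet factor of alpha granules, failed that filter and lay at 12.34, 12.94 and 13.10 in control mice and at 12.27, 13.44 and 13.64 in irradiated mice.

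**Figure D2:**
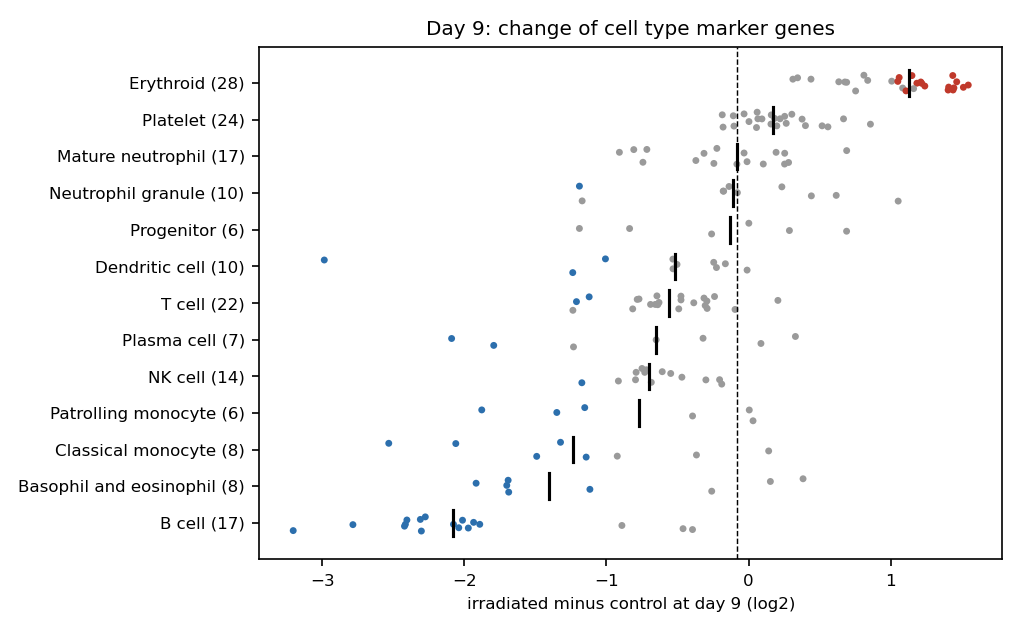
Change at day 9 (irradiated minus control, log2) of each detected marker gene in 13 cell type lists, with the number of detected genes in brackets. Red points were called higher, blue points lower, gray points were not called; the black bar is the list median and the dashed line the median of all detected genes (-0.08). B cell genes lie farthest to the left (median -2.08) and erythroid genes to the right (median 1.13).

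Red cell genes rose. All 28 erythroid genes were detected, all 28 changes were above 0, 22 were tested, 16 rose and the median change was 1.13. Their mean level was 5.77 to 6.54 in control mice and 6.75 to 7.73 in irradiated mice, with no overlap. Slc4a1, the anion exchanger of the red cell membrane known as band 3, lay at 10.59, 11.09 and 11.18 in control mice and at 11.79, 12.57 and 12.81 in irradiated mice, a 2.71-fold rise (adjusted p = 0.00015). Rhd, the Rh blood group antigen, lay at 6.17, 6.74 and 7.04 in control mice and at 7.55, 8.28 and 8.78 in irradiated mice, a 2.85-fold rise (adjusted p = 0.00017). The groups did not overlap for either. Other genes of the membrane skeleton rose by like amounts: Tmod1, which caps short actin filaments (2.92-fold), Add2, an adducin (2.76-fold), and Ank1, the ankyrin that ties band 3 to spectrin (2.72-fold). Alas2, which starts heme synthesis in red cells, changed by 0.75 (adjusted p = 0.0095) and did not pass; its probe was saturated on 3 control arrays and 0 irradiated arrays. The red cell transcription factors Gata1 (0.63) and Klf1 (1.08) varied too little over the series to be tested.

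The number of red cell genes called changed with the processing. Under spike-in scaling the erythroid median was -0.16, which lay 1.17 above the median of all genes, with 0 genes called by limma and 4 at an unadjusted p under 0.05. With slide as a fixed block 3 of the 22 were called, and within the shared slide 0 (8 at an unadjusted p under 0.05), at a median change of 1.05 in both. The medians are the same estimate, since only the shared slide held both groups. With normexp background correction 0 were called (15 at an unadjusted p under 0.05), at a median of 0.92. The B cell genes called lower were 14 with slide as a fixed block, 7 within the shared slide and 12 with normexp.

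Erythroid promoters often carry AGATAA, a motif of the factor GATA1. RefSeq windows were at hand for 18 of the 28 genes and 5 of them held AGATAA or its complement TTATCT, against 11.4% of all genes; of the 10 windows of genes that rose, 3 held it. These 3 are shown with the motif in capitals.
Rhd, chr4:134864473-134864518, plus strand: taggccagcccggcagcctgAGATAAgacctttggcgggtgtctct
Trim10, chr17:36869391-36869436, plus strand: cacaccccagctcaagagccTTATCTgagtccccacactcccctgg
Kel, chr6:41704356-41704401, minus strand: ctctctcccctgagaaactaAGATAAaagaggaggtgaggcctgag
The count of windows is small, and a window without these letters says nothing about the factor.

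Heme and iron genes showed the same direction at smaller size. Of 28 detected genes 22 were tested, 4 rose, 0 fell and the median change was 0.65. Of all tested genes 5.45% were called higher and 17.9% lower. Slc25a37, the mitoferrin that carries iron into the mitochondria of young red cells, rose 2.64-fold. Cpox and Urod, enzymes late in heme synthesis, rose 2.57-fold and 2.28-fold, and Blvrb, a biliverdin reductase of red cells, 2.15-fold. The transferrin receptor Tfrc (1.20) did not pass.

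Genes of cell division rose in part, and those called act mostly in mitosis. Of 37 detected genes of the cell cycle 27 were tested, 9 rose, 0 fell and the median change was 0.43. The mean level of the 37 was 2.58 to 3.12 in control mice and 3.33 to 3.63 in irradiated mice, with no overlap. The 9 were Cdca3, Mki67, Ccnb2, Ccna2, Top2a, Birc5, Nusap1, Ube2c and Tpx2. Cdca3, a trigger of entry into mitosis, lay at 1.27, 1.79 and 2.21 in control mice and at 3.51, 3.89 and 4.42 in irradiated mice, a 4.71-fold rise (adjusted p = 1.8e-05). Mki67, a coat protein of mitotic chromosomes, lay at 4.26, 5.04 and 5.42 in control mice and at 6.26, 6.61 and 7.04 in irradiated mice, a 3.08-fold rise (adjusted p = 0.00012). The groups did not overlap for either. The subunits of the replicative helicase changed by -0.90 (Mcm5), -0.86 (Mcm3) and -0.73 (Mcm4), which did not pass, and by -0.49 (Mcm6), -0.30 (Mcm7) and 0.50 (Mcm2), which varied too little to be tested. Within the shared slide 1 cell cycle gene was called, with a list median of 0.54, and under spike-in scaling 8 were called lower.

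Other genes of cell division rose as well. Cks1b, which binds cyclin-dependent kinases, rose 3.90-fold, and Uhrf1, which keeps DNA methylation through replication, 3.89-fold. Of 51 detected histone genes 21 were tested, 3 rose and 2 fell, beside 5.45% higher and 17.9% lower among all tested genes. Those that fell, H2afv and H3f3b, encode variants made outside S phase.

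Metallothionein Mt2, which binds zinc and other metals, had the largest rise of the genes named by rule. Its levels were 1.17, 1.59 and 1.74 in control mice and 3.05, 4.48 and 4.76 in irradiated mice, a 6.77-fold rise (SE 0.27 on the log2 scale, adjusted p = 1.4e-05). The groups did not overlap, which the naming rule required, and the lowest irradiated mouse stood apart from the other 5. Its neighbor Mt1, a close copy, lay at 2.61, 3.99 and 4.29 in control mice and at 4.87, 5.24 and 5.79 in irradiated mice and rose 2.96-fold (adjusted p = 0.00052). The 2 transcripts are alike in sequence, so the probes may not separate them fully. Of 27 detected metallothionein and antioxidant genes 13 were tested, 5 rose and 1 fell, at a median change of 0.07. The others that rose were Nqo1, a quinone reductase (2.29-fold), Prdx2, the peroxiredoxin of red cells (2.25-fold), and Sod2, the mitochondrial superoxide dismutase (2.02-fold). Keap1, which holds the antioxidant factor Nrf2 in check, fell 2.04-fold.

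Metallothionein promoters carry metal response elements, which are bound by the factor MTF-1 and share the core TGCRCNC. The core was searched as TGCACNC and TGCGCNC on both strands, and 23.8% of genes held it in the 250 bases before the start. Mt2 held 3 matches and Mt1 1, in capitals in the RefSeq sequences below, which are shown because the 2 genes rose.
Mt2, chr8:94172375-94172594, plus strand: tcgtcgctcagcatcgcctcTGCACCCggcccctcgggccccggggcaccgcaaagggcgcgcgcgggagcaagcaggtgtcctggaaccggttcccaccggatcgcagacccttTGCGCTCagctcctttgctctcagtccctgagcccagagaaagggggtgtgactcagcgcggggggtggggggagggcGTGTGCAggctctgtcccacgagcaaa
Mt1, chr8:94179046-94179088, plus strand: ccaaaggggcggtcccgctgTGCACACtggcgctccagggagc
The gene of the factor itself, Mtf1, was well above background in 2 control mice and in no irradiated mouse and was not called.

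**Figure D3:**
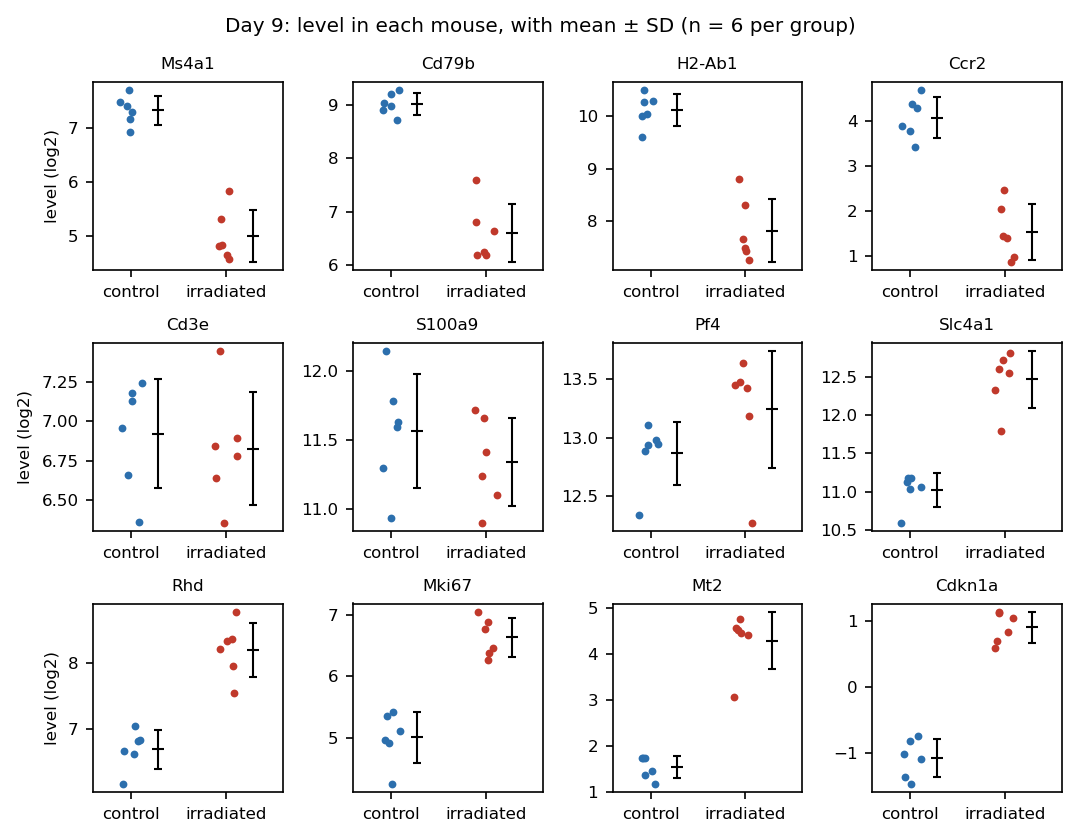
Level of 12 genes in each mouse at day 9 (log2, array median = 0), 6 control mice in blue and 6 irradiated mice in red, with the mean ± SD beside them; each panel has its own scale. Ms4a1, Cd79b, H2-Ab1 and Ccr2 are lower in every irradiated mouse, Slc4a1, Rhd, Mki67, Mt2 and Cdkn1a higher in every one, and Cd3e, S100a9 and Pf4 overlap between the groups.

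Of 24 detected p53 target genes 16 were tested, 1 rose and 3 fell (median change -0.41), shares near the 5.45% and 17.9% of all tested genes. The one that rose was Cdkn1a, the cyclin-dependent kinase inhibitor p21, with levels of -1.47, -1.05 and -0.74 in control mice and 0.59, 0.94 and 1.14 in irradiated mice and no overlap. It was well above background in 0 control mice and 1 irradiated mouse, so that the rise is given as at least 1.99-fold (adjusted p = 1.8e-05), and a further probe of the gene changed by 1.93. Pmaip1, the proapoptotic protein Noxa, fell 2.31-fold, and Sesn1, a stress-induced regulator of growth signaling, 2.03-fold. Ephx1, an epoxide hydrolase, fell 3.25-fold by the probe used, but a brighter probe of the gene, which failed the variation filter, changed by 0.54. Ddb2, the damage sensor of nucleotide excision repair, changed by -0.68 (adjusted p = 0.015), and Bbc3 (-0.01) and Ccng1 (0.07), further p53 targets, varied too little over the series to be tested.

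Of 39 detected DNA repair genes 33 were tested, 9 fell and 1 rose (median change -0.59), beside the same 17.9% and 5.45%. Parp1, the main sensor of strand breaks, lay at 3.19, 3.45 and 3.79 in control mice and at -0.34, 1.5 and 2.60 in irradiated mice, a 3.94-fold fall (adjusted p = 0.00065), with no overlap. Fanca, a subunit of the Fanconi anemia core complex, fell 2.65-fold, while Fancd2, the protein that complex modifies, rose 2.18-fold. Of 31 detected apoptosis genes 22 were tested, 7 fell and 1 rose (median change -0.77), beside the same 17.9% and 5.45%. Bmf, a proapoptotic BH3-only protein, fell 5.13-fold and Casp8, the initiator caspase of death receptors, 2.79-fold. Bcl2l1, which encodes the survival protein Bcl-xL, rose 2.07-fold.

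Innate immune genes fell in part. Of 24 detected genes of the Toll-like receptor pathway 19 were tested and 8 fell (median change -0.71), among them Ly86, the partner of the receptor RP105 on B cells (4.51-fold), Unc93b1, which carries nucleic-acid receptors to endosomes (3.85-fold), and Irf5, a transcription factor downstream of the receptors (3.82-fold). The receptor gene Tlr7 (0.57) did not pass and Tlr9 (0.31) was not tested. Of 17 detected NF-kB genes 14 were tested and 8 fell (median change -0.97). Of 38 detected interferon-stimulated genes 31 were tested, 13 fell and 1 rose, beside 17.9% lower and 5.45% higher among all tested genes, at a median change of -0.74. Gbp3, a guanylate-binding protein, fell 3.83-fold, whereas Rsad2, the antiviral enzyme viperin, lay at 10.95, 11.66 and 11.84 in control mice and at 11.86, 12.90 and 13.30 in irradiated mice and rose 2.29-fold (adjusted p = 0.0012), though its change was -0.055 under spike-in scaling. Isg15, a ubiquitin-like modifier, changed by 0.71 (adjusted p = 0.039) and did not pass.

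Receptors of chemokines and cytokines fell or did not pass. Of 25 detected chemokine and homing receptors 23 were tested and 11 fell (median change -0.81), and of 41 cytokines and cytokine receptors 35 were tested and 15 fell (median change -0.80). None of either rose, beside 17.9% lower and 5.45% higher among all tested genes. Cxcr5, which draws B cells into follicles, fell 4.10-fold, and Ccr6, a chemokine receptor of B cells, 3.95-fold. The BAFF receptor Tnfrsf13c (-2.15) and the related TACI, Tnfrsf13b (-2.22), led the cytokine receptors, both receptors of the BAFF family of ligands on B cells. Of the receptors of neutrophils, Cxcr2 (-0.24) did not pass and Csf3r (0.25) was not tested.

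Many genes of the mitochondrial ribosome fell as processed here. Of 75 detected 58 were tested, 34 fell and 1, Mrpl32, rose 3.02-fold; the median change was -0.97. Their mean level was 3.62 to 4.12 in control mice and 2.61 to 3.43 in irradiated mice, with no overlap. The number called lower ran from 0 to 60 over the alternatives: it was 0 with normexp (33 at an unadjusted p under 0.05) and within the shared slide (27), 5 with slide as a fixed block, 7 under 75th percentile scaling and 60 under spike-in scaling. Of 82 detected genes of the cytosolic ribosome 31 were tested, 3 fell and none rose, at a median change of 0.11. Among all tested genes 17.9% were called lower and 5.45% higher. Of 45 detected RNA degradation genes 35 were tested, 14 fell and 1, Lsm6, was called higher (median change -0.83). Parn, a poly(A) ribonuclease, was well above background in no irradiated mouse and fell at least 1.31-fold, and Exosc3, an exosome subunit, fell 3.13-fold. For Lsm6, part of the ring that binds decaying mRNA, 3 probes changed by 1.02 or more and another, well above background in no irradiated mouse, by -0.98.

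Oxidative phosphorylation genes moved both ways. Of 90 detected 54 were tested, 9 rose and 11 fell (median change 0.10), beside 5.45% higher and 17.9% lower among all tested genes. Cox6b2, an isoform of a cytochrome oxidase subunit known from testis, rose 3.27-fold, and 8 further genes rose, among them Cox7a2 (1.27) and Atp5k (1.13). Those that fell included Ndufs8 (-1.36), a core subunit of complex I. Of 41 detected proteasome genes 26 were tested and 8 fell (median change -0.62), 3 of them the immunoproteasome subunits Psmb8 (2.66-fold), Psmb9 (-1.25) and Psmb10 (-1.28). Of 27 detected genes of cholesterol and fatty acid metabolism 22 were tested and 8 fell (median change -0.66), led by the cholesterol exporter Abca1 (4.13-fold). Glycolysis had 3 falls among 10 tested of 19 detected. Beside the proteasome, cholesterol and glycolysis counts, 17.9% of all tested genes were called lower. Among 13 genes in common use as references 7 were tested and Hprt fell 2.29-fold, and Actb, used by the methods for qPCR, changed by 0.18.

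**Figure D4:**
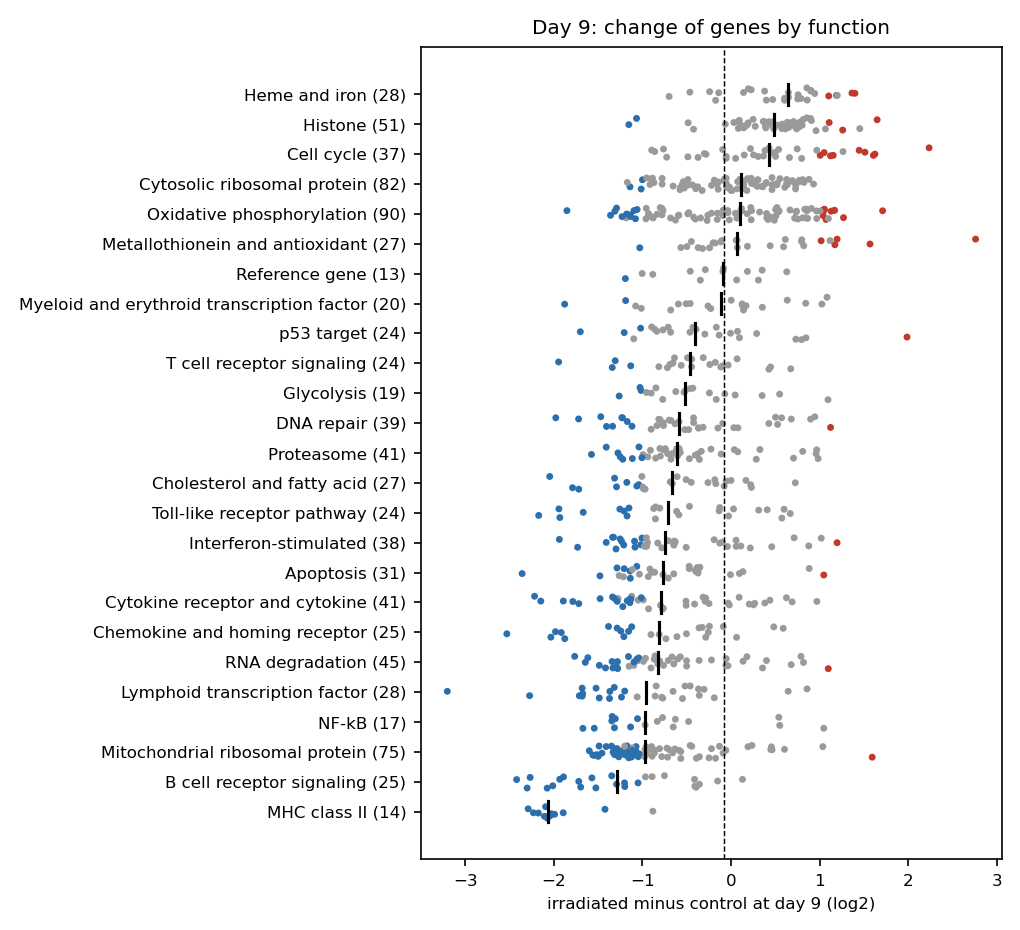
Change at day 9 (irradiated minus control, log2) of each detected gene in 25 lists of functions, with the number of detected genes in brackets; red points were called higher, blue lower and gray neither, the black bar is the list median and the dashed line the median of all detected genes (-0.08). MHC class II genes (median -2.06) lie farthest left, and heme and iron genes (0.65) farthest right.

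Of the other genes with the largest changes, several lay outside every list. Zfp36, which encodes the mRNA-destabilizing protein tristetraprolin, was well above background in no irradiated mouse and fell at least 2.78-fold (adjusted p = 9.4e-05). B3gnt8, a glycosyltransferase, fell at least 3.98-fold, and Slamf8, a SLAM-family receptor of myeloid cells, at least 2.31-fold. Cobll1 fell at least 2.93-fold and Elp3, the catalytic subunit of Elongator, at least 1.96-fold. For Dennd5b (at least 2.37-fold lower) and Ppfia4 (6.10-fold lower) another probe changed by -0.04 and 0.44. Crip2, a LIM-domain protein, rose 4.17-fold, Ctsf, a lysosomal protease, 3.20-fold, Nacad 5.17-fold and Tceal8 3.35-fold. The neighboring apolipoprotein L genes Apol10a and Apol10b rose 3.80-fold and 3.32-fold. Mtor, the growth-control kinase, rose 3.90-fold by its brightest probe, whereas a dim one changed by -0.42. Of the 799 called genes with several detected probes, 193 had a probe of opposite sign.

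Called genes were spread over the genome. By chromosome, among those with at least 100 tested genes, the share of tested genes called ran from 18.7% on the X chromosome to 28% on chromosome 19.

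**Figure D5:**
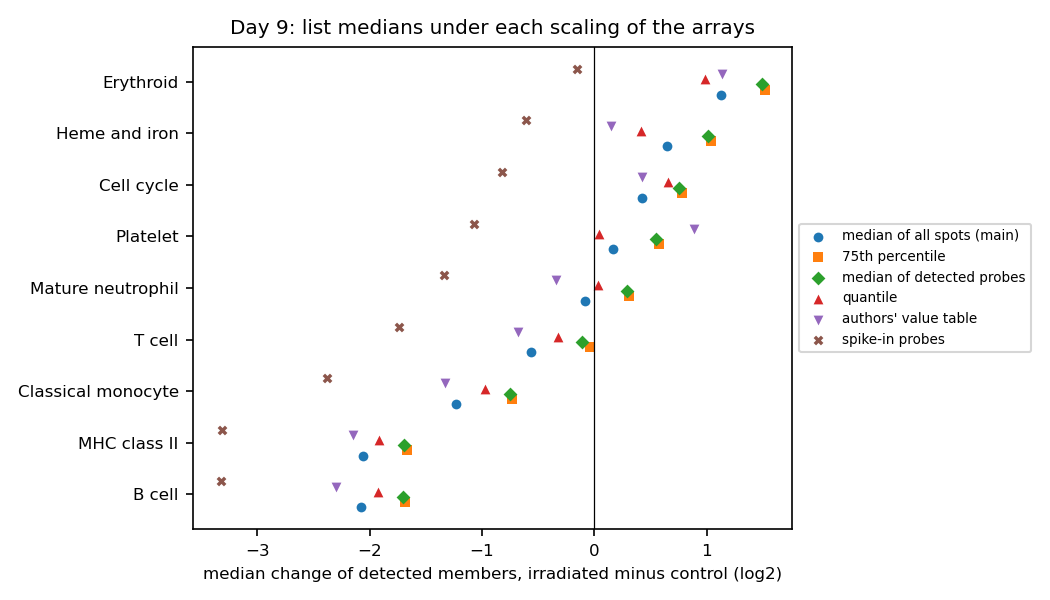
Median change at day 9 (irradiated minus control, log2) of the detected members of 9 gene lists when the arrays are scaled by the median of all spots, the 75th percentile, the median of detected probes, quantile normalization, the authors' value table or the spike-in probes. B cell and MHC class II medians are below -1.5 under each; the erythroid median is 1.13 as scaled here and -0.16 under spike-in scaling.

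The effect at day 9 was then set against the mean effect at days 4, 7, 25 and 30, each from its own control mice. In limma 1688 genes differed at an adjusted p under 0.05 (11.6%), 432 with a higher effect at day 9 (2.96%) and 1256 with a lower one (8.61%). Of the 3404 genes called at day 9, 271 were among them, and 3389 changed in the same direction in the mean of the other days. With slide as a random block 142 genes differed (44 higher, 98 lower), against day 7 alone 77, with normexp 0 (166 at an unadjusted p under 0.05, beside 3597 as processed here), and without control replicate 3 the count was 1060.

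Some red cell and cell division genes had a higher effect at day 9 than in the mean of the other days. Of 22 erythroid genes 5 differed, all higher, and of 27 cell cycle genes 5 were higher and 2 lower, beside the 2.96% of all genes. Cpox rose by 1.36 at day 9 against 0.43 on the other days (adjusted p of the difference = 0.0017), Cdca3 by 2.23 against 1.18 (adjusted p = 0.0018) and Cks1b by 1.96 against 0.88 (adjusted p = 0.00083). Slc4a1 rose by 1.44 against 0.74 (adjusted p = 0.016) and Mt2 by 2.76 against 2.08 (adjusted p = 0.034). With slide as a random block 0 erythroid genes and 1 cell cycle gene differed, and against day 7 alone 0 of either in limma (of all genes 77, and 2048 at an unadjusted p under 0.05). Of 16 B cell and 14 MHC class II genes 0 differed in limma (2 and 0 at an unadjusted p under 0.05): Cd79b fell by 2.42 on the log2 scale against 2.48 on the other days, Ms4a1 by 2.31 against 2.34 and H2-Ab1 by 2.29 against 2.20.

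Genes with the largest differences from the other days were mostly not called at day 9. Etv5, an ETS-family transcription factor, differed most among those named, by -3.41 (adjusted p = 9.8e-05). It lay at 9.50, 11.89 and 12.86 in control mice and at 9.18, 9.47 and 10.43 in irradiated mice and fell 3.90-fold, with overlap between the groups, against a mean change of 1.45 on the other days. Ntrk2, the receptor of the neurotrophin BDNF, lay at 10.05, 13.04 and 14.06 in control mice and at 10.19, 11.02 and 11.30 in irradiated mice, with overlap, and differed by -3.19 (adjusted p = 0.0022). Sprr1a, a keratinocyte protein, spanned 7.50 to 11.90 in control mice and 7.22 to 9.05 in irradiated mice and differed by -3.08. In control mice the levels differed by slide: control replicates 1 to 4, alone on their slide, lay at 11.58 to 12.86 for Etv5, 12.74 to 14.06 for Ntrk2 and 10.01 to 11.90 for Sprr1a. Control replicates 5 and 6, on the shared slide, lay at 10.51 and 9.50 for Etv5, 11.95 and 10.05 for Ntrk2 and 9.15 and 7.50 for Sprr1a. The changes at day 9 with slide as a fixed block were -0.19, 0.032 and 0.17. Olfr1414 (-2.80), Atp10b (-2.45) and Lin52 (-2.33) differed in the same direction and were not called at day 9; a dim probe of Lin52 changed by 1.21. Their levels too were lower in control replicates 5 and 6 than in 1 to 4, and with slide as a fixed block their changes at day 9 were -0.19, 0.44 and -0.14. In the other direction Sox1 differed by 1.20 (adjusted p = 0.015) and was called higher at day 9 (2.74-fold), while Cops7b (1.41), Hap1 (1.33), Bcl2a1c (1.20), Fnip2 (1.19) and Lrdd (1.13) were not called. Another probe of Hap1, well above background on all 12 arrays, changed by -0.59 at day 9, against 1.41 for the one used.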

How the data were processed

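The authors deposited, for each of 56 arrays of 1 mouse each, the scanner text file, in which the processed signal is an intensity on a linear scale, background-corrected by Agilent Feature Extraction (version 11.5.1.1 per the file headers, probes placed on mm9) and not scaled between arrays. The deposited spot flags (non-uniform, above background, well above background, saturated) are scores of 0 or 1, and a table of median-normalized log2 values by the authors was used as an alternative. Its 14208 entries matched 14162 probes and 9630 of its 170496 values at day 9 are missing. It differed from the values used here by a constant for each array (3.14 to 3.68, SD at most 0.0878). How it was centered is not given in the sources used here. There were 0 columns of other samples.

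Control spots were left out, non-uniform spots were set missing, spots of a probe were averaged and the median log2 value of an array was subtracted from all its values. Probes that 25% or more of the 56 arrays did not detect above background were removed (23318 probes of 18797 genes remained), and a 1.5-fold departure from the probe's median was required in 20% of the arrays (17096 probes, 14581 genes). The brightest probe past both filters stood for a gene, or the brightest detected probe where none passed both. Genes are named as in the array files (10486 matched RefSeq by accession, 737 of them with another symbol there). Day 9 was fitted by itself with limma 3.58.1 in R 4.3.3 (statmod 1.5.0 for blocks), 6 against 6 mice, and a gene was called at p under 0.001 and 2-fold, as in the methods. Adjusted p are Benjamini-Hochberg over all tested genes. The comparison with the other days is a limma contrast over all 10 groups. A gene well above background in no mouse of a group has only a bound. For the bound, each dim array's value was raised to the lowest signal of any probe well above background there, where it was below that, before the group means were compared. Array measures were compared by two-sided exact permutation over 462 splits. Gene lists, written from general knowledge, are described by counts and medians without a test.

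In simulated data 94% of 200 changed genes were recovered at day 9 with 11 false calls, and 87% with 9 in the contrast (14581 genes each). The settings of the simulated data are not given here. The figures therefore do not tell how reliable the calls are on arrays that differ between the groups in brightness and slide. In the measured data 3404 genes were called, 871 with slide as a fixed block and 106 with normexp. The precision is limited by 6 mice a group. Replicates are separate mice, and most lay on slides that held 1 group. Named genes were the 12 largest rises and falls with every irradiated mouse beyond every control mouse, up to 4 called and the first 2 members of each list, the genes measured by qRT-PCR in the methods, and the 6 largest differences each way from the other days; further members of lists were named after their values were seen. The lists and comparisons were chosen with earlier results of these data known. Alternatives were other scalings, background correction, filters, gene summaries, thresholds, tests, blocks and arrays left out. Promoters are RefSeq windows on GRCm38.p6, whose coordinates are not those of the probes on mm9. Some genes are not reported here.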

Additional observations from a re-analysis of the deposited data

Results flagged for a closer look

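The value of 1 mouse lay far from the other 5 of its group, by the gap to its neighbor against the group's range (Dixon's critical value), in 48 of 352 groups of values tested. Chance alone gives such a value in about 1 of 20 groups. Control replicate 6 accounted for 22 of the 48 and irradiated replicate 1 for 19, both on the slide that the groups shared and each with the highest array median of its group (4.73 in the control mice, itself 1 of the 48). Control replicate 5 accounted for 6 and irradiated replicate 3 for 1. No cause was tested. Without control replicate 6 3275 genes were called and without irradiated replicate 1 3100.

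Among red cell and heme genes the lowest control mouse stood apart for Add2 (2.89), Alas2 (14.10, its probe saturated on 3 control arrays), Bcl2l1 (11.90), Blvrb (10.08), Prdx2 (11.53), Slc25a37 (12.67), Slc4a1 (10.59), Tmod1 (4.01) and Urod (8.06), and for the mean level of the erythroid (5.77) and heme and iron (6.29) lists. The lowest irradiated mouse stood apart for Prdx2 (12.32) and Slc25a37 (13.90).

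Platelet genes showed it in both groups: Pf4 at 12.34 in control and 12.27 in irradiated mice, the platelet list at 7.09 and 7.02, and Ppbp, a platelet chemokine, at 11.48 in control mice. So did Actb at 12.91 and 12.89, Lsm6 at 7.39 and 7.84, the metallothionein and antioxidant list at 5.55 and 5.62 and the histone list at 4.64 and 4.71.

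Other low irradiated mice were those of Casp8 (0.88), Ccna2 (6.22), Crip2 (5.80), Ctsf (6.86), Mt2 (3.05), Nacad (1.85), Nqo1 (3.63), Sod2 (8.83) and Sox1 (4.57) and of the cytosolic ribosomal protein (8.54) and oxidative phosphorylation (5.41) lists, and the highest irradiated mouse stood apart for Etv5 (10.43). Other low control mice were those of Fnip2 (-0.37) and the cell cycle list (2.58). High control mice were those of Ddb2 (2.01) and of the lists for plasma cells (2.48), NK cells (4.07), cholesterol and fatty acid (2.98), RNA degradation (3.99), chemokine and homing receptors (4.63) and lymphoid transcription factors (4.07).

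The effect of 90Sr at day 9 differed from the mean effect on the other days at an adjusted p under 0.05 in limma for 30 of the named genes. It was higher at day 9 by 0.72 for Ank1, 0.93 for Cpox, 0.59 for Rhd and 0.69 for Slc4a1 among red cell genes, and by 0.70 for Ccna2, 1.05 for Cdca3, 1.08 for Cks1b, 0.74 for Mki67, 0.73 for Top2a and 1.09 for Uhrf1 among genes of cell division. It was higher by 0.90 for Apol10a, 1.20 for Bcl2a1c, 1.41 for Cops7b, 0.69 for Crip2, 1.19 for Fnip2, 1.33 for Hap1, 1.13 for Lrdd, 0.76 for Mrpl32, 0.68 for Mt2, 0.94 for Mtor, 0.72 for Rsad2, 1.20 for Sox1 and 0.998 for Tceal8. It was lower for Atp10b (-2.45), Ccr3 (-0.90), Etv5 (-3.41), Lin52 (-2.33), Ntrk2 (-3.19), Olfr1414 (-2.80) and Sprr1a (-3.08). With slide as a random block 142 of all genes differed, against 1688.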

How the results depend on the processing

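Under 75th percentile scaling 2304 genes were called higher and 908 lower, under the median of detected probes 2196 and 987, and under quantile normalization 1455 were lower. Spike-in scaling gave 8040 called genes, 1 higher and 8039 lower. The authors' value table gave 435 higher genes. Normexp gave 106 called genes, 10 higher and 96 lower, and 0 that differed from the other days. Requiring probes to be well above background on 6 of 12 arrays left 410 higher genes, and no detection filter 1640. Slide as a fixed block gave 871 called genes (192 higher, 679 lower), the shared slide alone 358 (99 and 259), and slide as a random block left 142 genes that differed from the other days. Without the 2 arrays of highest spike-in signal, a choice made after seeing the data, 2248 were called (513 and 1735). Without the control and the irradiated array of highest median, likewise chosen afterward, 2964 genes differed from the other days. Against day 7 alone 77 differed. An adjusted p with 2-fold gave 1266 higher genes, and an adjusted p alone 7231 genes (2325 higher, 4906 lower).

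Less the median of all genes, the B cell median was -2.0, the MHC class II median -1.98, the erythroid median 1.21 and the cell cycle median 0.51. They kept their sign under all alternatives run. Without the detection filter they were -2.44, -2.43, 0.76 and 0.22; with normexp the B cell and cell cycle medians were -1.41 and 0.19, and with the value table the cell cycle median was 0.70. Leaving out 1 array at a time gave 2827 to 3667 called genes, 639 to 933 higher and 2111 to 2995 lower, list medians of -2.13 to -1.89 (B cell), -2.13 to -1.88 (MHC class II), 1.12 to 1.31 (erythroid) and 0.41 to 0.61 (cell cycle), 26 to 30 of 38 lists below the median of all genes (30 with all arrays), and 1060 to 2435 genes that differed from the other days, the lowest without control replicate 3.

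Signs of some single genes turned as follows, and the list is not complete. Under spike-in scaling Alas2, whose probe was saturated on 3 control arrays, was at -0.50, Bcl2a1c -1.17, Bcl2l1 -0.21, Blvrb -0.15, Cops7b -0.86, Fancd2 -0.13, Isg15 -0.54, Lrdd -0.39, Lsm6 -0.15, Nqo1 -0.055, Prdx2 -0.080, Rsad2 -0.055, Sod2 -0.24 and Urod -0.061. Under the 75th percentile and the median of detected probes Cd3e was at 0.30 and 0.27, S100a8 at 0.079 and 0.055 and Ephx1 at 0.93 and 0.91, and Ephx1 was at 0.54 without the variation filter and at 0.38 with normexp, since another probe then stood for it. Lsm6 was at -1.11 with quantile normalization and at -0.92 in the value table, and Bcl2a1c at -0.016 in the table, -0.082 without control replicate 4 and -0.25 without irradiated replicate 2. With slide as a fixed block and within the shared slide Atp10b was at 0.44, Cd3e at 0.090, Lrdd at -0.52, Ntrk2 at 0.032 and Sprr1a at 0.17. The cause of these changes was otherwise not tested.

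With the replicate number as a block 2743 genes were called and 1625 differed from the other days. The numbers do not pair the mice: same-numbered mice correlated at -0.28 to 0.064 in their deviations. Scan day as a block was not run, since 1 scan day covered all 12 arrays. Of the 794 higher genes 366 were well above background on no control array, so their size is limited by the background.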

Other observations

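Of 24 detected genes of T cell receptor signaling 16 were tested and 4 fell: Nfatc3 (-1.95), the phosphatase Ptprc, known as CD45 (-1.34), the kinase Csk (-1.31) and Rasgrp1 (-1.13). Nfatc3 was well above background in no irradiated mouse, so the size of its fall is limited by the background. Of all tested genes 17.9% were called lower. The median change was -0.46, beside -0.08 for all detected genes. Ptprc and Csk also act in other white cells.

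Of 20 detected transcription factors of myeloid and red cells 11 were tested and 2 fell, Irf8, which directs monocyte and dendritic cell development (3.68-fold), and Cebpe (2.28-fold). The median change was -0.11, and 2 of 11 is near the 17.9% called lower among all tested genes. Of 6 detected genes of blood progenitor cells 3 were tested and 0 were called, with 2 at an unadjusted p under 0.05 in limma (median change -0.13).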
